A study of Mus musculus with 6 samples.

Results

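Zinc finger regulator genes were taken as every gene of the deposited table whose symbol starts with Zfp, Zbtb, Zscan, Zkscan, Zc3h, Zmym, Zeb, Zhx, Zmiz or Znf, and 27 of the 1834 listed genes met this rule. They comprised 23 Zfp genes, 2 Zbtb genes (Zbtb20 and Zbtb41), Zc3h12b and Zeb2. The Zscan, Zkscan, Zmym, Zhx, Zmiz and Znf groups had 0 members in the table. The mouse annotation (GENCODE M21) holds 502 protein-coding genes with these name starts, so the table lists 5.38% of them, against 7.20% of all 21951 protein-coding genes.

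The libraries are bulk liver RNA of mice kept on the same diet, and the study title places them in work on metabolic dysfunction-associated steatotic liver disease. The controls are labelled wild type and received an adeno-associated virus (AAV) carrying green fluorescent protein (AAV-GFP, 3 libraries). The other group is labelled Ly6d overexpression and received an AAV carrying Ly6d, a small membrane-anchored protein (AAV-Ly6d, 3 libraries). The sources used here do not give the kind of diet, the age and sex of the mice, or the capsid and promoter of the vectors. No label states whether each library is a mouse of its own, and the p-values therefore refer to a spread between samples that could be technical.

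Most genes named Zfp encode proteins with C2H2 fingers, loops folded around a zinc ion that each read a few bases of DNA. Many also carry a KRAB domain, which recruits the corepressor TRIM28 and silences transposable elements and genes, while Zbtb proteins pair such fingers with a BTB domain that binds other corepressors. CCCH fingers, as in Zfp36l1, Zfp36l2 and the Zc3h genes, bind RNA instead, and Zeb proteins repress epithelial genes by binding E-boxes.

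Values are normalised read counts, that is, reads divided by a size factor for each library. The 1834 genes held between 3248078 and 4359932 reads per library, which is part of each library's depth. Ly6d itself was 56.1, 9.68 and 182 in AAV-GFP and 3181, 1799 and 3275 in AAV-Ly6d, as the labels state. Of 12 listed hepatocyte markers 4 were tested, and Apoa1 was between 31908 and 130777 in every library. AAV-GFP replicate 2 lay apart on the first principal component, at -49.9, whereas AAV-GFP replicates 1 and 3 had scores of -15.4 and -18.1 and the AAV-Ly6d libraries scores between 25.1 and 29.6. The sources used here do not state how the 1834 genes were chosen. In a DESeq2 fit to recovered reads the largest unadjusted p among the 1780 tested genes was 0.069, and 90.4% of them were under 0.05. The table therefore holds genes that already differ between these libraries, and every count below is a count inside such a table.

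The zinc finger genes divided by direction. They were compared with limma, a linear model fitted across genes, on log2(value + 1), and a gene was called when its p, adjusted by Benjamini-Hochberg across the 1780 tested genes, was below 0.05. Of the 27 members 26 were tested. Among these 5 rose (Zfp296, Zfp36l2, Zfp385b, Zfp771 and Zfp36l1), 4 fell (Zc3h12b, Zfp704, Zfp970 and Zeb2) and 17 did not pass. Among all tested genes 15.9% rose and 28.0% fell. By sign alone 12 tested members were higher and 14 lower, beside 700 and 1080 of all 1780 tested genes. Of the 12, Zfp593 reached the value of 1 needed for testing only in AAV-Ly6d libraries. Its sign is therefore not independent of that filter. Of the 22 tested Zfp genes 12 were higher and 10 lower, while the 2 Zbtb genes, Zc3h12b and Zeb2 were lower. The subfamilies were not tested against each other. The median log2 fold change was -0.58 over the 26 members and -0.67 over all tested genes. The AAV-GFP and AAV-Ly6d values did not overlap for 23 of the 27 members, beside 82.7% of the genes of the table. The plot of each gene by library shows this split.

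**Figure D1:**
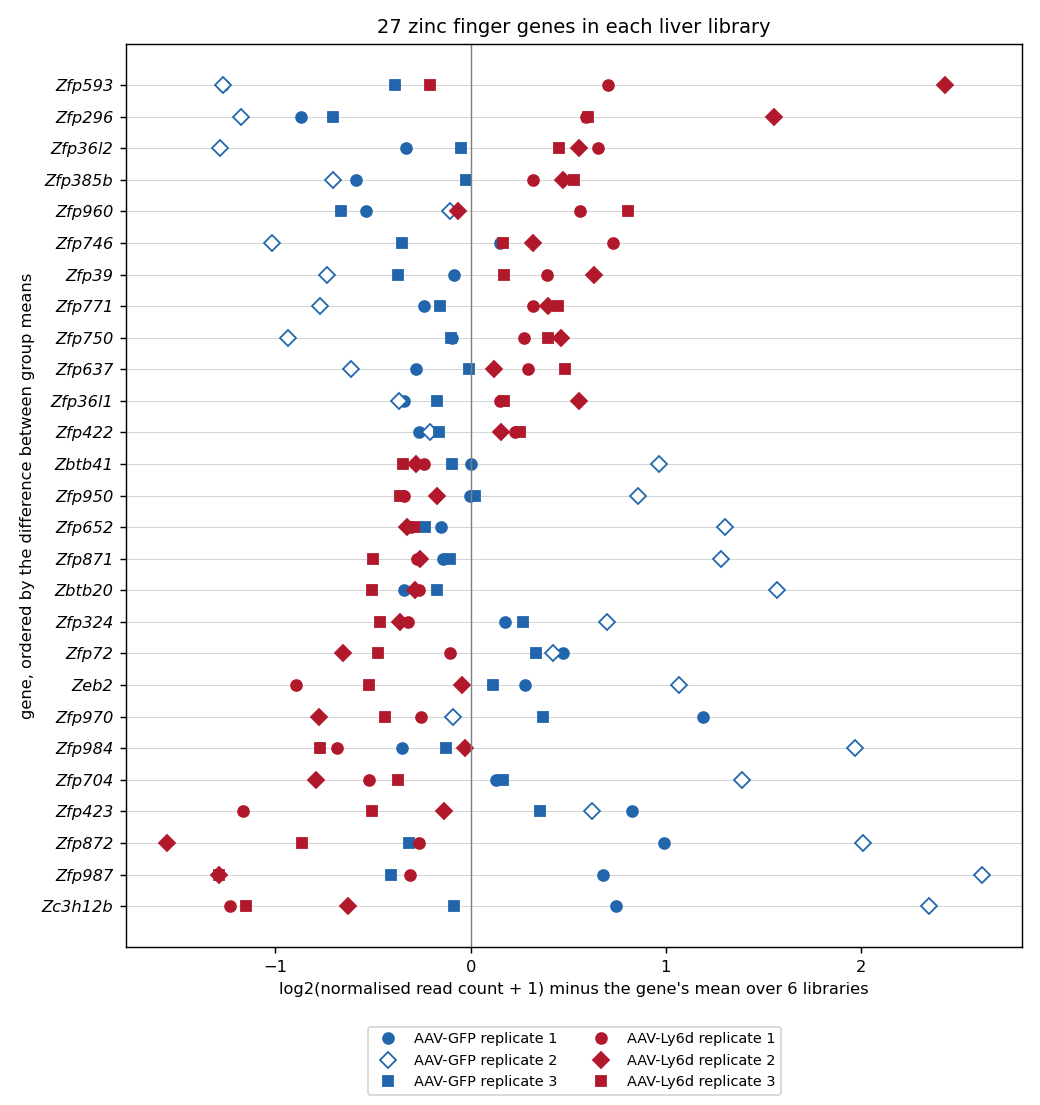
Each row is a zinc finger gene and each point a library (blue AAV-GFP, red AAV-Ly6d), placed at its log2(normalised read count + 1) minus the gene's mean over the 6 libraries. The groups did not overlap for 23 of 27 genes, and the open diamonds of AAV-GFP replicate 2 lie farthest right for 12 of the 15 genes with a lower AAV-Ly6d mean.

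Adjusted p-values of the 9 called members lay between 0.0387 and 0.0497, close under the threshold, and leaving out single libraries ended many calls, in the members and across the table. Without AAV-GFP replicate 1 limma called 0 members, with 13 at an unadjusted p under 0.05, beside 4.19% of all tested genes that fell and 3.50% that rose. Leaving out AAV-Ly6d replicate 1 also ended all calls (11 members at an unadjusted p under 0.05), and here 0.00% of the tested genes fell and 0.00% rose. Leaving out AAV-Ly6d replicate 2 left 0 members called and 9 at an unadjusted p under 0.05, where 4.70% of the tested genes fell and 1.19% rose. For AAV-Ly6d replicate 3 the counts were 0 and 8, and the shares 0.739% and 0.341%. Log2 fold changes without AAV-Ly6d replicate 1 were 1.06 for Zfp36l2, 0.94 for Zfp385b, 0.81 for Zfp771 and -1.15 for Zfp704, beside 1.11, 0.88, 0.78 and -1.13 with all libraries. Without AAV-GFP replicate 3 limma called Zfp36l2 and Zfp385b as higher and 0 members as lower, where 3.27% of all tested genes rose and 4.70% fell. With the adjustment over all 55450 annotated genes, limma and DESeq2 called 0 members, beside 0.0562% and 6.97% of the tested genes, and 17 and 24 members had an unadjusted p under 0.05.

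The scale mattered as well. When every library was scaled to equal medians of the gene ratios, the median log2 fold change of all tested genes moved up by 0.34, and then 12 members rose and only Zc3h12b fell, where 36.6% of all tested genes rose and 16.3% fell. In edgeR with TMM factors 12 members rose and 2 fell, against 37.5% and 16.8% of the tested genes. Both counts of 12 include Zfp593, which entered the test only through AAV-Ly6d. Rises made up 36.2% of all calls on the deposited scale, 69.2% after rescaling and 69.1% in edgeR. The signs of the 26 members were the same on these 3 scales. Median-ratio and TMM scaling set the libraries level at the centre of the table. That is sound only where a typical listed gene has the same level in both groups. This table holds genes that already differ, as 90.4% of tested genes were under an unadjusted p of 0.05 in DESeq2. The rescaled and TMM counts, here and below, therefore cannot show whether rises or falls prevail.

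The RNA-binding members Zfp36l1 and Zfp36l2 were among the most abundant members per kilobase of transcript in both groups, and both rose. They belong to the tristetraprolin family, which binds AU-rich elements in messenger RNA and recruits the CCR4-NOT deadenylase. The normalised read count of Zfp36l2 was 1019, 525 and 1239.6 in AAV-GFP and 2012, 1885 and 1756 in AAV-Ly6d. The lowest AAV-Ly6d library was 1.42 times the highest AAV-GFP library, and AAV-GFP replicate 2 was the lowest of all 6. The mean rose 2.03-fold, from 928 ± 366 to 1885 ± 128 (SD, n = 3 each), and the limma estimate on the log2 scale was 1.11 ± 0.31 (SE), with an adjusted p of 0.0404. For Zfp36l1 the counts were 777, 762 and 873 in AAV-GFP and 1092, 1446 and 1108 in AAV-Ly6d. Here AAV-GFP replicate 2 was close to its group, and the means of 804 ± 60.0 and 1215 ± 200.2 (SD, n = 3 each) differed by 0.59 ± 0.19 (SE) on the log2 scale in limma, with an adjusted p of 0.0458. The antisense RNA gene Gm26669 covers 55.9% of the exonic bases of Zfp36l1, and the counting strand is not given, so reads of this pair cannot be told apart. Both genes passed without AAV-GFP replicate 2 as well, where 16.3% of all tested genes rose, with log2 fold changes of 0.74 for Zfp36l2 and 0.55 for Zfp36l1. Of the 4 hepatocyte markers tested 2 rose with all libraries, beside 15.9% of all tested genes. These were Hnf4a, by 0.65 (adjusted p = 0.0409 in limma), and Apoa1, by 1.12 (adjusted p = 0.0441 in limma), on the log2 scale. Serpina1a (0.41) and Apob (-0.61) did not pass, and the summed value of the 4 was between 303265 and 821115 in AAV-GFP and between 380716 and 397336 in AAV-Ly6d. The highest sum was that of AAV-GFP replicate 2, where Apob alone held 743167, against 201516 and 186314 in AAV-GFP replicates 1 and 3. The part of these markers in the rises of the zinc finger genes was not tested.

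Zfp385b, Zfp771 and Zfp296 also rose. Zfp385b, whose fingers are of the matrin type, held 176, 162.5 and 261 in AAV-GFP and 331, 369 and 383 in AAV-Ly6d, which limma put at 0.88 ± 0.25 (SE) on the log2 scale, with an adjusted p of 0.0405. The C2H2 gene Zfp771 held 289, 200.1 and 307 in AAV-GFP against 428, 450.4 and 467 in AAV-Ly6d (0.78 ± 0.23, SE, on the log2 scale; adjusted p = 0.0414 in limma). For both genes every AAV-Ly6d library was above every AAV-GFP library, by at least 1.27 times and 1.39 times. Zfp296, a cofactor of reprogramming to pluripotency, was near the limit of detection in controls, with 3, 2 and 4 reads, and had 10, 20 and 9 reads in AAV-Ly6d. Its group means were 2.81 ± 0.617 and 13.1 ± 5.87 (SD, n = 3 each), and limma gave a log2 difference of 1.83 ± 0.50 (SE), with an adjusted p of 0.0387. Exons of the antisense gene Gemin7 cover 12.9% of its exonic bases.

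Of the other members with higher AAV-Ly6d values, none passed on the deposited scale with all libraries. Zfp750, a regulator of epidermal differentiation, held 271, 151 and 270.0 in AAV-GFP and 349.9, 399 and 382 in AAV-Ly6d, with an adjusted p of 0.0531 in limma. It passed without AAV-GFP replicate 2 (log2 fold change 0.47, adjusted p = 0.0496). Zfp746, which encodes the Parkin substrate PARIS, a repressor of the PGC-1α gene, held 344, 153 and 243 against 515, 388 and 348, so that its groups nearly touched. Zfp422 had the tightest groups, with 227, 237 and 244 in AAV-GFP and 319.8, 305 and 325 in AAV-Ly6d, and the smallest ratio of the higher members, 1.34. The adjusted p of Zfp422 was 0.0705. Zfp637 (131 ± 27.2 against 196 ± 24.8) and Zfp39 (36.3 ± 8.27 against 63.1 ± 10.2; SD, n = 3 each) gave log2 fold changes of 0.60 and 0.79 and adjusted p-values of 0.0637 and 0.0613 in limma. The antisense gene Gm12256 covers 11.4% of the exonic bases of Zfp39. Zfp593 had 0, 0 and 1 read in AAV-GFP and 3, 12 and 1 in AAV-Ly6d, so its groups were apart on the normalised scale only because 1 read has another worth in each library. A protein-coding antisense gene, E130218I03Rik, covers 77.9% of its exonic bases.

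The bases before the start sites of 3 genes that rose and 1 that fell are given here, because the GC content and the promoter elements of these windows differ between the genes. The sequences are from RefSeq (GRCm38.p6), which has entries for 22 of the 27 members; Zfp36l2, Zfp593, Zfp704, Zfp750 and Zfp960 had none. Each run is the 250 bases upstream of the start site, 5′ to 3′ on the gene's strand, from chr12:80113014-80113263 (minus) for Zfp36l1, chr7:19577037-19577286 (plus) for Zfp296, chr7:127244276-127244525 (plus) for Zfp771 and chr2:45117443-45117692 (minus) for Zeb2. Where a gene had several entries, the start site closest to the annotated gene start was taken. The start site lay 371403 bases from the annotated gene start for Zbtb20, 36394 for Zfp652, 2823 for Zfp385b, 298 for Zfp422 and 252 for Zfp771. The windows of these genes therefore lie inside the annotated gene, and they count in the shares and medians below. Capitals mark the GC box GGGCGG, the CCAAT box CCAAT and the TATA box TATAAA on either strand, which may overlap.
Zfp36l1: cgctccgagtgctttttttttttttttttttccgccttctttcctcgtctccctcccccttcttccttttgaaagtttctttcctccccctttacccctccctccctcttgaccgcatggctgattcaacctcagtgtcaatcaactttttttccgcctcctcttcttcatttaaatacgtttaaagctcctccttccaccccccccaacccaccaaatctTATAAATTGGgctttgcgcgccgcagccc
Zfp296: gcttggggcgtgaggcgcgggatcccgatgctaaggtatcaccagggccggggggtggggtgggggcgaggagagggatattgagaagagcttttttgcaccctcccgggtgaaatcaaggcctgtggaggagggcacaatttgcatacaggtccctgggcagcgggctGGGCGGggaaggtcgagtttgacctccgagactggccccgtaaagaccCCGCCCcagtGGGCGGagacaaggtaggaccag
Zfp771: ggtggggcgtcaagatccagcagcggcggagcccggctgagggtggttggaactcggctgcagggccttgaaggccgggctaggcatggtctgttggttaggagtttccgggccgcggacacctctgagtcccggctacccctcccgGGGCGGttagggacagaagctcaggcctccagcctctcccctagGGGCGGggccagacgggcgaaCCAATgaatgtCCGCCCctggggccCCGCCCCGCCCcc
Zeb2: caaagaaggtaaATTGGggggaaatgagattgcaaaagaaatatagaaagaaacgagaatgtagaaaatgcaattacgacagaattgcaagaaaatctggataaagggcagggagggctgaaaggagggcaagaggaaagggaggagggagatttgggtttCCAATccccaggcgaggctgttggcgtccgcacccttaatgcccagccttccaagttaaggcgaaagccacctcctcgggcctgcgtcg
Zfp771 carries 5 GC boxes and Zfp296 carries 3, whereas Zeb2 has 2 CCAAT boxes and no GC box in this window. The Zfp36l1 window has a TATA box that shares a base with a CCAAT box read on the other strand. Of 32851 promoter entries, 32.7% hold a GC box, 33.8% a CCAAT box and 12.4% a TATA box in the same window. Among members with an entry, the GC box was present in 5 of 8 with higher and 4 of 14 with lower AAV-Ly6d means, and the CCAAT box in 3 of 8 and 9 of 14. The median GC content of the window was 67.2% for the 8 and 49.4% for the 14, against 52.4% over all entries. These are matches of letters and do not show that a factor binds there.

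Zeb2 fell. It encodes a repressor best known for its part in epithelial-mesenchymal transition and in macrophage identity. Its normalised read count was 274, 473 and 244 in AAV-GFP and 121, 218 and 157 in AAV-Ly6d, with means of 330.4 ± 125 and 165 ± 49.4 (SD, n = 3 each). The groups lay close, as the lowest AAV-GFP library was 1.12 times the highest AAV-Ly6d library. In limma the log2 difference was -0.98 ± 0.34 (SE), with an adjusted p of 0.0491. Without AAV-GFP replicate 2 it was -0.68 (adjusted p = 0.0721), and after rescaling -0.63 (adjusted p = 0.0862), so the call ended in both. The antisense gene Zeb2os covers 3.27% of the exonic bases of Zeb2.

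The summed endothelial and stellate cell markers, and the only macrophage marker in the table, were lower in the libraries in which Zeb2 was lower. All 11 endothelial markers tested, of 17 listed, fell, beside 28.0% of all tested genes. Their summed value was between 8045 and 12581 in AAV-GFP and between 2941 and 3814 in AAV-Ly6d. The stellate cell and fibroblast list has 16 genes, of which 8 entered the test and 6 fell, with sums of 3560 to 5219 and 1101 to 2476. Of 13 listed macrophage markers only Mrc1 was in the table, and it fell from between 1230 and 1472 to between 499.6 and 860.0. A single marker cannot show a change of macrophages. Of 7 listed erythroid markers 5 were tested, all 5 had lower AAV-Ly6d means and 2 fell. AAV-GFP replicate 2 was the highest AAV-GFP library for all 5. Without it 0 of them fell, where 18.6% of all tested genes did. Their sums overlapped, with 2708, 5863 and 4424 in AAV-GFP and 1897.5, 2850 and 2030 in AAV-Ly6d. The cycling cell marker Mki67, the only 1 of 12 listed in the table, was lower and did not pass (log2 fold change -0.87, adjusted p = 0.0618 in limma). Cholangiocyte markers went the other way: of 8 listed 2 were tested, Tff3 and Sox9, and both rose, beside 15.9% of all tested genes. Their sums were 59.2 to 80.2 in AAV-GFP and 303 to 1111 in AAV-Ly6d. Listed markers of T and NK cells, B cells and neutrophils had 0 genes in the table. In bulk tissue, fewer cells of a type and less RNA per cell cannot be told apart, and the part of these markers in the Zeb2 result was not tested. The same markers stand beside Zfp423, a regulator of preadipocyte commitment, which had 27, 21 and 22 reads in AAV-GFP and 6, 13 and 9 in AAV-Ly6d. Its groups did not overlap, the normalised means differed by a factor of 2.35, and the adjusted p was 0.0518 in limma.

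Zfp704, Zc3h12b and Zfp970 fell as well. Zfp704 held 165, 398 and 169.6 in AAV-GFP and 105, 86.7 and 116 in AAV-Ly6d, a log2 difference of -1.13 ± 0.38 (SE) in limma, with an adjusted p of 0.0466. Its value in AAV-GFP replicate 2 was 2.38 times the mean of AAV-GFP replicates 1 and 3. Without that library it also passed (-0.71, adjusted p = 0.0489 in limma), where 18.6% of all tested genes fell. The antisense RNA gene C030034L19Rik covers 16.6% of the exonic bases of Zfp704, so reads of this pair cannot be told apart there. Zc3h12b, a member of the Regnase family of RNA-cleaving CCCH proteins, rested on few reads, with 7, 21 and 4 in AAV-GFP and 1, 2 and 1 in AAV-Ly6d. Its log2 difference of -2.01 ± 0.70 (SE; adjusted p = 0.0497 in limma) became -1.34 without AAV-GFP replicate 2 (adjusted p = 0.0840). With a pseudocount of 4 in place of 1 it was -1.27, and the call ended (adjusted p = 0.0586). Zfp970 held 778, 319.6 and 440.5 in AAV-GFP and 286, 198 and 251 in AAV-Ly6d (-0.98 ± 0.34, SE, on the log2 scale; adjusted p = 0.0495 in limma). It was the only member with a lower AAV-Ly6d mean whose lowest AAV-GFP value was that of replicate 2, and it passed without that library too (-1.27, adjusted p = 0.0342). AAV-GFP replicate 1 was its highest library, and without it the log2 fold change was -0.63 and the call ended (adjusted p = 0.0863). After rescaling the adjusted p was 0.196.

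Several of the more abundant members with lower AAV-Ly6d means differed mainly or in part through AAV-GFP replicate 2. Zbtb20, a repressor of the alpha-fetoprotein gene in adult liver, held 1893, 7114 and 2129.9 in AAV-GFP and 1994, 1965 and 1686 in AAV-Ly6d. AAV-GFP replicate 2 was 3.54 times the mean of AAV-GFP replicates 1 and 3, which overlapped with AAV-Ly6d. Zbtb20 did not pass (log2 fold change -0.71, adjusted p = 0.165 in limma), and without that library the log2 fold change was -0.10. Zfp652, whose protein binds the corepressor CBFA2T3, was also highest in AAV-GFP replicate 2, with 868, 2379 and 819 in AAV-GFP and 779.6, 769 and 789 in AAV-Ly6d, where the groups did not overlap. The antisense gene Abi3 covers 18.9% of its exonic bases, and Phospho1 on the same strand 11.8%. Zfp871 (631, 1695 and 648 against 574, 582 and 492) and Zbtb41 (501, 978 and 469 against 425, 413 and 394) had the AAV-Ly6d libraries just under AAV-GFP replicates 1 and 3. Zfp950 did likewise, with 236, 430.4 and 240.5 against 187, 210.3 and 184. None of these 5 genes passed. Zbtb41 and Zfp950 each had a log2 fold change of -0.58 with all libraries. Part of it remained without AAV-GFP replicate 2 (-0.24 and -0.30). All 5 lay between -0.30 and -0.10 without that library. Zfp324 (107, 155 and 115 against 75.8, 73.7 and 68.5) and Zfp72 (51.3, 49.5 and 46.4 against 34.0, 22.9 and 26.1) moved less, to log2 fold changes of -0.61 and -0.81 without it from -0.76 and -0.82 with all libraries. Zfp324 lay just over the threshold and Zfp72 had an adjusted p of 0.0574 in limma.

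**Figure D2:**
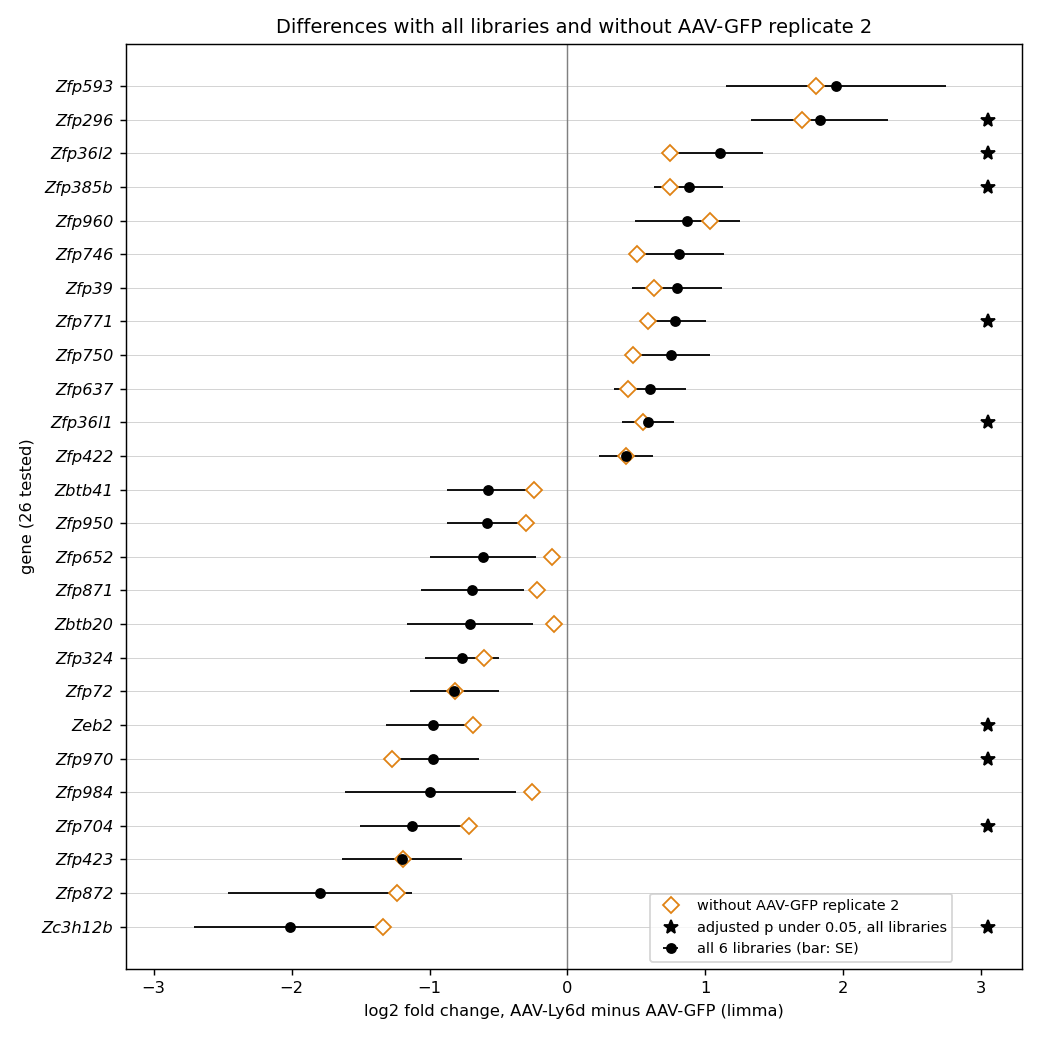
Black points and bars are the limma log2 fold changes (AAV-Ly6d minus AAV-GFP) and SE of the 26 tested genes with all 6 libraries, open diamonds the values without AAV-GFP replicate 2, and stars the 9 called genes. Zbtb20, Zfp652 and Zfp984 move most of the way to 0 without that library, while Zfp423, Zfp72, Zfp422 and Zfp36l1 hardly move.

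AAV-GFP replicate 2 was the highest AAV-GFP library for 12 of the 15 members with a lower AAV-Ly6d mean and the lowest for 9 of the 12 with a higher one. Over the table these shares were 75.6% of 1134 and 72.0% of 700 genes, close to those of the members. Leaving this library out moved the median log2 fold change from -0.58 to -0.11 over the members and from -0.67 to -0.40 over all tested genes. It kept the sign of all 26 members and called 6 as higher and 2 as lower, beside 16.3% and 18.6% of the 1738 genes tested.

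Some members have near copies, and their counts are uncertain. Of 50-base windows of the longest transcript, 93.1% in Zfp987, 84.5% in Zfp960, 57.4% in Zfp984 and 57.2% in Zfp970 also occur in transcripts of other genes, such as Gm8935, Zfp97, Gm13212 and Gm14288 in that order. In the other 23 members this share was at most 7.52% (Zfp422, with its pseudogene Zfp422-ps). Zfp960 was 21.3, 29.1 and 19.4 in AAV-GFP and 46.7, 29.9 and 55.5 in AAV-Ly6d and did not pass (adjusted p = 0.0643 in limma). Zfp984 held 31.0, 158 and 36.3 against 24.3, 38.9 and 22.8, with overlapping groups and an adjusted p of 0.151. Zfp987 had 3, 13 and 1 reads in AAV-GFP and 1, 0 and 0 in AAV-Ly6d and was not tested. Zfp872, without such copies, had 23, 43 and 10 reads against 9, 3 and 5, where 1 AAV-GFP library overlapped with AAV-Ly6d on the normalised scale, and its adjusted p was 0.0540.

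Members that were higher had shorter and more GC-rich transcripts than members that were lower. The longest annotated transcript of the 12 higher members was between 1355 and 3890 bases, with a median of 2865 bases and a median GC content of 49.5%. For the 14 lower members it was between 1569 and 26901 bases, with medians of 5911 bases and 41.3%. All 6 members with transcripts of at least 8000 bases (Zbtb20, Zfp704, Zfp871, Zfp652, Zeb2 and Zbtb41) were lower, and AAV-GFP replicate 2 was the highest AAV-GFP library for each. The table as a whole did the same, as 94.4% of 196 tested genes of that length were lower, and so were 33.9% of 392 tested genes under 2000 bases. Over long genes AAV-GFP replicate 2 exceeded the log2 mean of AAV-GFP replicates 1 and 3 by a median of 0.89 in all tested genes and of 1.32 in the 6 members. Across the 26 members Spearman's rho of log2 fold change with length was -0.48 and with GC content 0.45 (all tested genes -0.30 and 0.28). Without AAV-GFP replicate 2 these were -0.46 and 0.46 (all tested genes -0.33 and 0.20). Genes of a library share its depth and RNA quality and are not independent. Between 2000 and 4000 bases 9 of 11 members were higher, with a median log2 fold change of 0.79, beside 302 of 607 tested genes and a median of -0.42. This difference was not tested. The part of length and base composition in the fold changes was not tested.

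**Figure D3:**
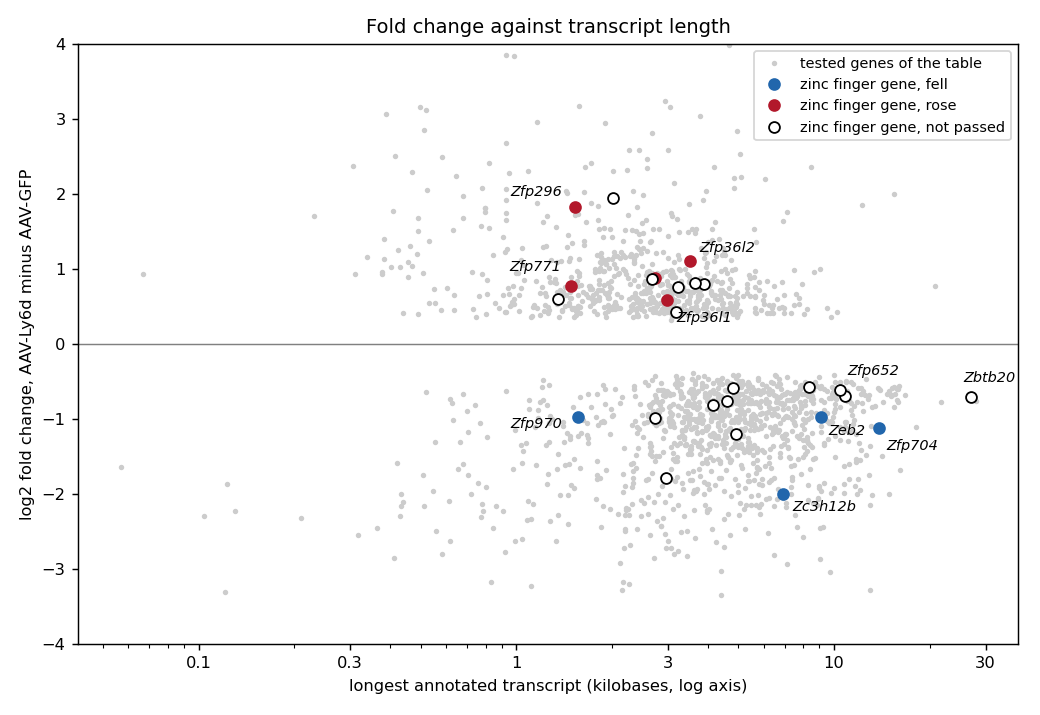
Log2 fold change (AAV-Ly6d minus AAV-GFP) against the length of the longest annotated transcript on a log axis, with the tested genes of the table in grey and the zinc finger genes in colour by call; 8 tested genes lie outside the axis range. All 6 zinc finger genes with transcripts of at least 8000 bases are below 0, and the empty band around 0 shows that genes with small differences are not in the table.

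Levels per kilobase of the longest transcript spanned several orders. The order of the group means differed. In AAV-GFP the highest mean normalised read counts per kilobase were those of Zfp970 (327), Zfp36l1 (269), Zfp36l2 (263) and Zfp771 (179). In AAV-Ly6d they were those of Zfp36l2 (534), Zfp36l1 (406), Zfp771 (302) and Zfp970 (156). At the low end were Zc3h12b (1.58) and Zfp593 (0.139) in AAV-GFP and Zc3h12b (0.195) and Zfp987 (0.116) in AAV-Ly6d. Zfp36l2 was above Zfp36l1 in every library but AAV-GFP replicate 2. Since the longest transcript need not be the one in liver, as for Zbtb20 with its 26901 bases, a level per kilobase is understated where shorter transcripts are used.

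**Figure D4:**
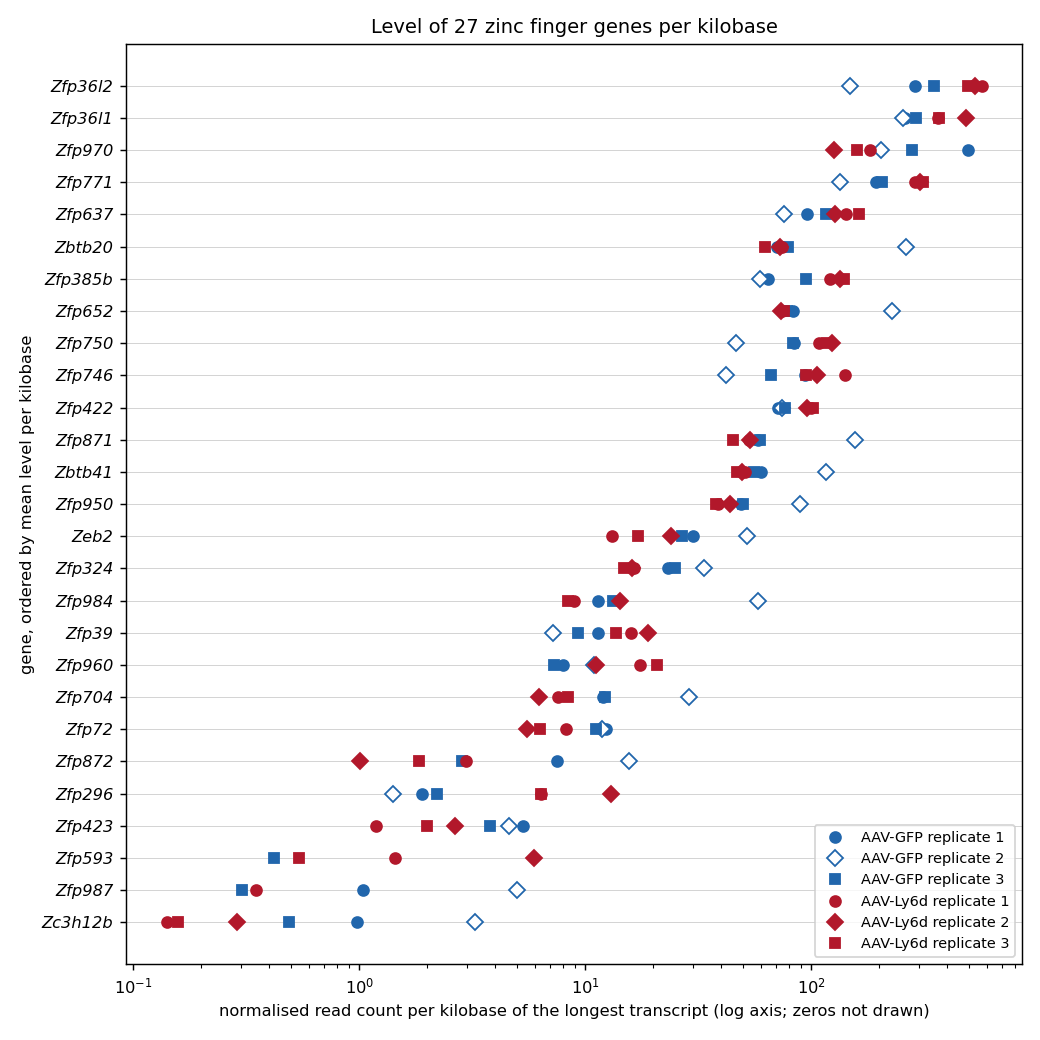
Normalised read count per kilobase of the longest transcript for the 27 genes in each library, on a log axis and ordered by the mean of the 6 libraries (blue AAV-GFP, red AAV-Ly6d; zeros are not drawn). The highest AAV-GFP mean was that of Zfp970 (327), through AAV-GFP replicate 1, and the highest AAV-Ly6d mean was that of Zfp36l2 (534).

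Of 5 lists of genes that act with these proteins or share their finger type, the table held between 3.70% and 18.8% of each, beside 7.20% of all protein-coding genes. Of 23 listed partners of KRAB silencing only Mphosph8, a subunit of the HUSH complex, was in the table, and it did not pass (log2 fold change 0.58, adjusted p = 0.0661 in limma). Of 28 corepressor genes 4 were tested and 0 passed, with 4 at an unadjusted p under 0.05 in limma. The NCOR partner Tbl1xr1 (0.47) and the BCL6 corepressor Bcor (0.65) had positive log2 fold changes, and the deacetylase gene Hdac1 (-0.61) and Ctbp2 (-1.12) negative ones. Of 27 mRNA decay genes only the decapping enzyme gene Dcp2 was tested (-0.74, adjusted p = 0.0661). Of 16 SUMO genes 3 were tested and 0 passed, with 2 at an unadjusted p under 0.05 in limma. Of 134 C2H2 transcription factors with other names 13 were tested, 1 fell and 3 rose, beside 28.0% and 15.9% of all tested genes. Klf7 fell from 94.4 ± 24.4 to 39.2 ± 6.98 (SD, n = 3 each; log2 fold change -1.23, adjusted p = 0.0386 in limma). The glucocorticoid-induced Klf9 (0.54), Klf11 (0.71) and, named after its value was seen, Repin1 (0.76) rose. The median of the 13 was -0.77, against -0.67 over all tested genes.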

How the data were processed

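The authors deposited 1 table of normalised read counts, a signal that is never negative, for 6 liver libraries and 1834 genes. Per the submitters' processing notes, the tool Bowtie 0.12.2 and the build mm10 were used in some step. The sources used here do not give the counter, strand setting, annotation or normalisation tool. Within each library 100% of values were whole multiples (within 0.001) of a single step, the worth of 1 read (0.844 to 1.09), and reads were recovered as value divided by step. For AAV-Ly6d replicate 2 the step lies near 1 (0.997), so an automatic check of the recovery did not cover that column. Reads of all 6 libraries entered the count tests, which are alternatives only.

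Symbols, coordinates, longest transcripts and shared 50-base windows come from GENCODE M21 (GRCm38, which is mm10), where 1833 of 1834 identifiers had a symbol. Differences were tested in limma 3.58.1 (R 4.3.3, eBayes with trend, no covariates) on log2(value + 1), for genes that reached a value of 1 in 3 or more libraries, which left 1780 genes tested and 54 not. Fold changes on this scale understate those of low genes. An exact permutation test of 3 against 3 cannot go below p = 0.1 and was not used. On simulated counts for 1834 genes limma recovered 68% of 100 genes changed 2-fold and 99% of 100 changed 4-fold and called 4 of 1634 unchanged genes. The simulation had a dispersion of 0.05 for every gene, no outlying library and mostly unchanged genes. The deposited table differs in these points, so the simulated rates do not carry over to it. Alternatives were edgeR 4.0.16, DESeq2 1.42.0, other pseudocounts, filters and scalings, a replicate block and leaving out each library.

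The members and lists were chosen with earlier results of these data known. Genes to be named with values were every member outside the Zfp names, the 12 lower and the 6 higher Zfp genes with the smallest p (10 lower ones were tested), a set of well-known Zfp genes, Ly6d, and the 3 genes with the smallest p of each partner list, or all where fewer than 5 were tested, except that values of single SUMO genes are not reported here. Zfp746, Zfp593, Zfp39, Zfp637, Zfp960, Zfp422 and Zfp987 are outside this rule and were added so that every member is accounted for.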

Additional observations from a re-analysis of the deposited data

How the results depend on the processing

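All 26 tested members kept their sign in every fit in which they were tested. The count of 4 members that fell was 2 with a pseudocount of 4 (25.3% of all tested genes fell), 1 without the filter on low values (23.4%), 1 after rescaling by the median ratio, 2 in edgeR with TMM and 1 in edgeR with the deposited size factors (17.1%). The count of 5 that rose was 12 after rescaling, 12 in edgeR with TMM (both with Zfp593, which entered only through AAV-Ly6d) and 2 in limma without the trend (7.75%). With the adjustment over all annotated genes 0 fell and 0 rose in limma and in DESeq2. With DESeq2 and the adjustment within the table, 6 fell (46.9%) and 7 rose (28.3%). Leaving out each library in turn gave 0 to 2 that fell, 0 to 6 that rose and a median log2 fold change between -0.74 and -0.11. edgeR with the deposited size factors and DESeq2 over all annotated genes were chosen after seeing the data. With the replicate number as a block, 0 members fell and 0 rose (14 at an unadjusted p under 0.05 in limma), where 1.91% and 0.787% of all tested genes did. Deviations of same-numbered libraries from their group means correlated at -0.02, -0.05 and -0.06, and those of differently numbered ones between -0.08 and 0.09. With 3 libraries per group this cannot show whether the numbers pair the libraries, and the labels do not state it.

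Ly6d had a log2 fold change of 5.79 in limma, with an adjusted p of 0.0182 within the table and 0.567 over all annotated genes, where DESeq2 gave 0.00156. Without a library it had log2 fold changes between 4.70 and 6.75 in limma. Its call ended without AAV-Ly6d replicate 1 (adjusted p = 0.0867 in limma) and without AAV-Ly6d replicate 3 (adjusted p = 0.0564 in limma). Of the 13 other C2H2 factors 4 were called with all libraries, where 28.0% of all tested genes fell and 15.9% rose. Without the trend 1 was called (23.0% and 7.75%), and with the replicate block 0 (1.91% and 0.787%). Over all annotated genes 0 were called in limma (0.0562% of tested genes, either direction) and in DESeq2 (6.97%). DESeq2 within the table called 9 (46.9% fell and 28.3% rose), and edgeR with deposited size factors 1 (17.1% and 9.04%). With a library left out 0 to 6 were called, with 6 without AAV-GFP replicate 2 (18.6% and 16.3%). Corepressor calls, 0 of 4 in the main test, were 2 after rescaling, where 16.3% of all tested genes fell and 36.6% rose. They were 2 in edgeR with TMM (16.8% and 37.5%), 3 in DESeq2 within the table (46.9% and 28.3%) and 0 to 1 with a library left out. The KRAB partner was called after rescaling and in edgeR with TMM (1 each), the decay gene in DESeq2 (1) and 2 SUMO genes in DESeq2. These calls stand beside the same shares of all tested genes. The cause of these changes was not tested. Depth limits Zc3h12b, Zfp296, Zfp593 and Zfp987, which have under 25 reads in every library.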
